A study of Mus musculus with 44 samples.

Results

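The Jchain-high lymphomas were 9 of the 43 lymphomas in a series of 44 arrays, the other array being 1 spleen. All 44 samples came from Eµ-myc mice, whose Myc transgene is driven in the B lineage by the immunoglobulin heavy chain enhancer. Age, sex and treatment of the mice are not given in the sources used here, and whether each array came from a separate animal is not stated, so p-values measure the spread between these arrays. RNA had been extracted either from frozen tumour tissue or from pelleted cells, and the route of each sample is not given in the labels. The samples were measured on Affymetrix mouse arrays as log2 expression per probe set, in 2 sets of arrays whose overall level differed, with title numbers up to that of D117 (set 1) and above it (set 2).

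Members were chosen by the level of Jchain. The 7 lymphomas D46, D53, D75, D78, D88, D117 and D163, which had the highest levels of germinal centre genes, were left aside. The level of each of the other 36 (30 in set 1 and 6 in set 2) was taken relative to the mean of its array set. The 9 highest formed the Jchain-high group and the 9 lowest the Jchain-low group. Each group held 7 lymphomas of set 1 and 2 of set 2. The Jchain-high lymphomas were D83, D85, D93, D121, D92, D55, D81, D63 and D143. The Jchain-low lymphomas were D151, D82, D135, D43, D35, D62, D72, D89 and D71. All results below compare Jchain-high with Jchain-low lymphomas, and a positive difference means higher in the Jchain-high group.

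The J chain is a small polypeptide that joins IgM or IgA monomers into the polymers that B-lineage cells secrete. Plasma cells make it in quantity, together with a large endoplasmic reticulum (ER), the regulators Prdm1, Xbp1 and Irf4 and the chaperones that fold antibody chains. In the B lineage these regulators replace Pax5 and Bach2, which maintain the B cell state.

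Because Jchain set the groups, its level is given as a description without a test. Relative to the mean of the array set, Jchain lay between 1.89 (D143) and 3.08 (D83) in the Jchain-high lymphomas and between -3.52 (D151) and -2.11 (D71) in the Jchain-low lymphomas. The first lymphoma below the upper group, D133, had 1.54, and the first above the lower group, D58, had -2.05. The step at the upper border was wider than that at the lower one. To give 1 scale, set 2 was moved to the set 1 mean of the 36 lymphomas. Every level below is on that scale, except where deposited levels or values are named. On it, Jchain had a median of 10.33 in the Jchain-high group and 5.43 in the Jchain-low group. Outside the ranking, the 7 lymphomas left aside had deposited levels from 10.07 to 13.71 and the spleen had 13.23. The name Jchain-high therefore applies within the 36 ranked lymphomas only.

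**Figure D1:**
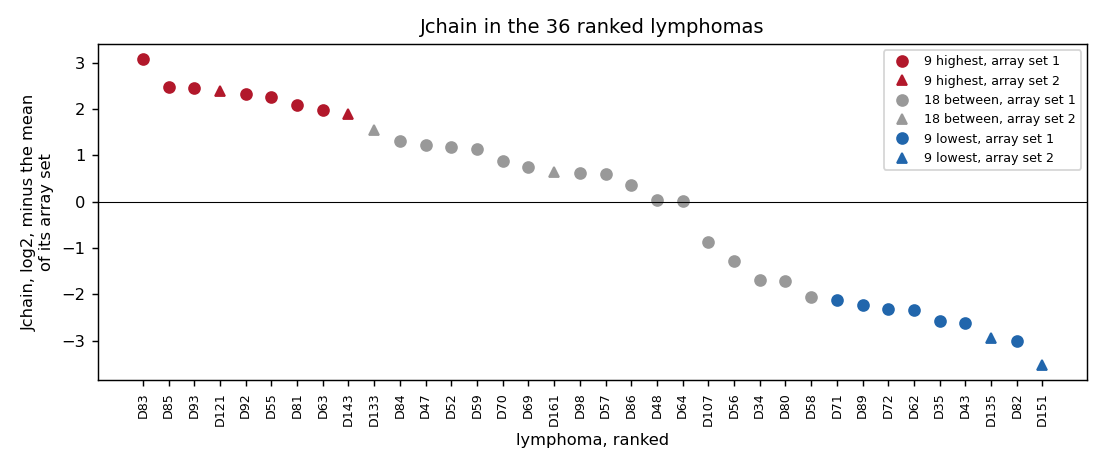
Jchain in the 36 ranked lymphomas, as log2 level minus the mean of the array set (vertical axis), by rank (horizontal axis). Red points are the 9 highest, between 1.89 and 3.08, blue points the 9 lowest, between -3.52 and -2.11, and grey points the 18 between; circles are set 1 and triangles set 2.

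In the window of 250 bases before the annotated start of Jchain, no heat shock or ER stress motif was found by a search of both strands for the letters given below. The window is printed because Jchain defined the groups. It is RefSeq sequence of the GRCm38.p6 assembly, chr5:88527898-88528147, minus strand, all in lower case since it holds no match.
Jchain: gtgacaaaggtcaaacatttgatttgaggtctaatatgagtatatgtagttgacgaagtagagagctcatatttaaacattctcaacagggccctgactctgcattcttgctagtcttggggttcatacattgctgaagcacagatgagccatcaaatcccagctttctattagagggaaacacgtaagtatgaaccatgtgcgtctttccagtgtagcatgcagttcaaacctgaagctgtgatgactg

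A pair of array features moved with the groups and stand beside every result. The first concerned RNA quality. The 3' minus 5' probe set difference of the control gene Gapdh averaged 0.368 ± 0.290 in Jchain-high lymphomas and -0.000653 ± 0.157 in Jchain-low lymphomas (SD, n = 9 each), a difference of 0.369 in log2 (exact two-sided permutation test, p = 0.00136). The same measure of beta-actin averaged 0.768 ± 0.292 in Jchain-high and 0.433 ± 0.0744 in Jchain-low lymphomas (SD, n = 9 each; exact permutation p = 0.00247). Array medians, at 6.42 ± 0.26 in the Jchain-high and 6.40 ± 0.263 in the Jchain-low group, gave p = 0.162 in the same exact test. These exact tests used values relative to the mean of the array set. The means and SDs are of deposited values, so the SDs also hold the difference between array sets. With the Gapdh measure as a covariate, no gene was called in either direction. The part of RNA quality in each result was not tested further.

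The second feature was that 3 Jchain-high lymphomas, D55, D92 and D121, stood apart from the other 33 ranked lymphomas. In all 3, 126 of the 8452 genes tested lay above and 54 lay below every one of those 33. No other set of 3 arrays was counted in this way, so how unusual these counts are was not tested. Cd7, a lymphoid surface receptor, lay between 10.68 and 12.01 in the 3 and reached 8.13 at most in the others. Flt3, a cytokine receptor of progenitors and dendritic cells, lay between 8.26 and 10.79 in the 3 and reached 7.01 at most in the others. Irf8, a factor of the dendritic and B lineages, lay between 11.73 and 12.59 in the 3 and reached 10.74 at most in the others. Batf3 and Tcf4, factors of dendritic cell subsets, lay above the others by less, at 7.49 or more against at most 7.37 for Batf3 and 10.64 or more against at most 10.61 for Tcf4. Bst2 and Itgax, also counted as dendritic cell genes, did not separate in this way. Bst2 lay between 10.095 and 11.081 in the 3 and reached 10.185 in the others. Itgax lay between 6.685 and 9.88 in the 3 and reached 8.26 in the others. Cd3d, Cd3e and Cd3g, which define T cells, were within the range of the others in all 3. The T cell gene Cd4 lay between 8.44 and 9.86 in the 3 and reached 7.72 at most in the others.

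Among B lineage genes, Ebf1, a factor needed for B cell identity, lay between 3.30 and 5.41 in the 3 and was at least 6.71 in the others. Pou2af1, a B cell coactivator, lay between 5.36 and 8.80 in the 3 and was at least 10.78 in the others. Cd79a, a chain of the B cell receptor complex, lay between 6.42 and 9.08 in the 3 and was at least 9.37 in the others. Its partner chain Cd79b did not separate in this way. It was 7.91 in D92, but 10.53 in D55 and 10.59 in D121, against 9.76 or more in the others. These arrays were singled out after their values were seen, for low levels of B cell genes. Their low B lineage levels are thus part of that choice and not a separate result. The differences of many genes below are also given without them.

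Among 8452 genes tested other than Jchain, 150 (1.77%) were higher and 220 (2.6%) lower in Jchain-high lymphomas at an adjusted p under 0.05, together 370 (4.38%), by limma with array set as a covariate and Benjamini-Hochberg adjustment. At least 2-fold differences made up 37 (0.438%) of the higher and 28 (0.331%) of the lower genes. Without D55, D92 and D121, which leaves 6 Jchain-high lymphomas, 28 of the 8452 genes were higher and 46 lower. Fewer genes pass there throughout, so a lost call alone does not tell those arrays from the smaller group. Within set 1 alone, 7 against 7, limma called 0 genes in either direction, and set 2 holds only 2 against 2. The unadjusted p was under 0.05 for 1998 genes (23.6%) in the fit of both sets. Leaving out 1 array at a time gave from 40 to 276 higher and from 63 to 430 lower genes, the lowest without D85 and the highest without D89.

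Igha, the constant region of the IgA heavy chain, had the largest difference of all genes named here. It lay between 7.16 and 12.44 in the Jchain-high lymphomas, with a median of 11.11. In the Jchain-low lymphomas it lay between 4.64 and 8.24, with a median of 6.35. The difference was 4.16 ± 0.70 (SE), or 17.9-fold, with a limma adjusted p of 0.0104. Of the 9 Jchain-high lymphomas, 8 lay above all 9 Jchain-low lymphomas, and D83, which had the highest Jchain of the 36, had the lowest Igha of its group, 7.16. All 3 Igha probe sets were higher, by 3.22 to 4.16. Without D55, D92 and D121 the difference was 4.50 (adjusted p = 0.026), and within set 1 it was 4.16 (adjusted p = 0.075). In set 2, D121 and D143 had 8.38 and 12.08, against 5.85 and 6.27 in D135 and D151. With the Gapdh measure as a covariate Igha differed by 3.29 (limma adjusted p = 0.282). These are bulk samples, so fewer cells of a type and less RNA per cell cannot be told apart.

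Other immunoglobulin genes did not all follow Igha. Of 6 immunoglobulin genes tested, Igha alone was called, where 4.38% of all genes were called. The list's median difference was 0.22, against -0.0039 over all genes tested. Ighm, the IgM heavy chain, reached 12.54 as a median in Jchain-high and 12.61 in Jchain-low lymphomas on its brightest probe set, a difference of -0.10 ± 0.65 (limma adjusted p = 0.946), and -0.053 without D55, D92 and D121. D83 and D35 were the low ends of their groups, at 8.56 in D83 and 8.46 in D35. Among 11 Ighm probe sets 2 were called higher, with differences of 1.86 and 1.92, so the probe sets of this gene disagreed. Ighg3, an IgG heavy chain, differed by 0.84 ± 0.30 (limma adjusted p = 0.102). For Igk, the kappa light chain, the difference was 0.54 ± 0.25 (limma adjusted p = 0.201).

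**Figure D2:**
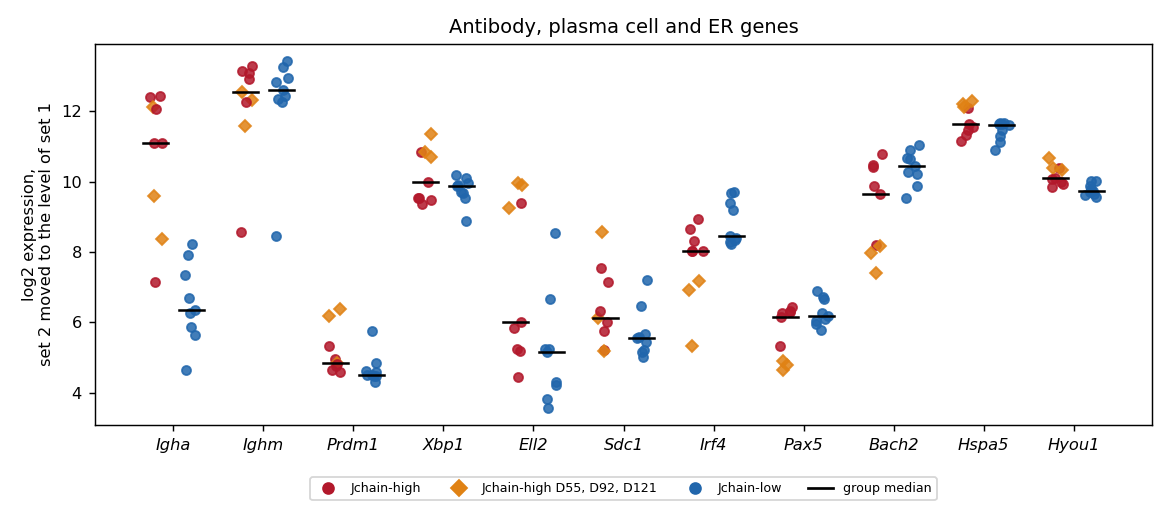
Levels of antibody, plasma cell and ER genes in log2, set 2 moved to the level of set 1, for 9 Jchain-high (left of each pair) and 9 Jchain-low lymphomas (right). Each point is 1 lymphoma, orange diamonds are D55, D92 and D121, and black lines are group medians; Igha medians are 11.11 and 6.35, while Ighm, Xbp1 and Hspa5 overlap.

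Of 15 plasma cell regulators and markers tested, 0 were called by limma in either direction, where 4.38% of all genes were called, so the count is near the background. The list's median difference was 0.42, against -0.0039 over all genes tested, and 10 of the 15 were positive. Without D55, D92 and D121 the median was 0.16. The lymphomas are called Jchain-high here, after the rule that chose them, and not secretory. Prdm1, the regulator that shuts down the B cell programme, had a median of 4.85 in Jchain-high and 4.49 in Jchain-low lymphomas and a difference of 0.50 ± 0.26 (limma adjusted p = 0.255). The highest Prdm1 of the Jchain-high group, 6.39 and 6.18, was in 2 of the 3 arrays that stood apart, and without the 3 the difference was 0.17. Xbp1, the factor that expands the secretory pathway, had medians of 9.99 in Jchain-high and 9.88 in Jchain-low lymphomas and a difference of 0.42 ± 0.27 (limma adjusted p = 0.357). In the 3 arrays that stood apart it was 10.70 to 11.35, the other 6 Jchain-high lymphomas had a median of 9.54, and without the 3 the difference was 0.042. Over all 18 lymphomas, the 4 Xbp1 probe sets differed by 0.42 to 0.80, and 0 were called by limma. Ell2, the elongation factor that favours secretory heavy chain transcripts, ranged from 4.45 to 9.95 in the Jchain-high group and from 3.57 to 8.53 in the Jchain-low group. Its difference of 2.05 ± 0.89 had a limma adjusted p of 0.171, and it was 0.79 without D55, D92 and D121. The 4 Jchain-high lymphomas with Ell2 above 9 were D83 and those 3.

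Sdc1, the plasma cell surface proteoglycan CD138, differed by 0.73 ± 0.42 (limma adjusted p = 0.303). For Irf4 the difference was -1.14 ± 0.40 (limma adjusted p = 0.101), opposite in sign to the other regulators, with 5.32 to 8.93 in Jchain-high and 8.23 to 9.71 in Jchain-low lymphomas. The 3 arrays that stood apart had 5.32 to 7.19, and without them the difference was -0.52 (limma adjusted p = 0.336). Of 2 Irf4 probe sets, the other differed by only -0.085, and 0 were called. Slamf7, a plasma cell surface receptor also found on other lymphoid cells, differed by -1.45 ± 0.47 (limma adjusted p = 0.078), and by -0.83 without the 3. Cd28, also counted among T cell genes, differed by 1.56 ± 0.46 (limma adjusted p = 0.061), and by 0.88 without the 3. For Tent5c, another member of the list, the difference was 1.03 ± 0.37 (limma adjusted p = 0.105). Tnfrsf17 was not above the array median in any of the 18 lymphomas.

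Of 35 ER chaperone and unfolded protein response genes tested, 1 was higher and 0 were lower, against 1.77% and 2.6% of all genes. The median difference was 0.17, with 27 of the 35 positive, and it was 0.018 without D55, D92 and D121. The higher gene was Hyou1, an ER chaperone, with medians of 10.10 in Jchain-high and 9.72 in Jchain-low lymphomas, a difference of 0.42 ± 0.11 (limma adjusted p = 0.0425). Without D55, D92 and D121 its adjusted p was 0.149, and of its 3 probe sets 0 passed when all probe sets were tested by limma. Hspa5, the main ER chaperone BiP, differed by 0.31 ± 0.16 (limma adjusted p = 0.251), and by 0.094 without the 3. Hsp90b1, its partner GRP94, differed by 0.45 ± 0.14 (limma adjusted p = 0.068), and by 0.30 without the 3. The co-chaperone Dnajb9 differed by -0.58 ± 0.18 (limma adjusted p = 0.064).

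Along the rest of the route, 0 of 20 ER translocation genes were higher and 1 was lower. That gene was Tram1, which helps nascent chains into the ER, at -0.40 ± 0.09 (limma adjusted p = 0.025), or 0.0535 without D55, D92 and D121. Of 2 Tram1 probe sets, 1 was called when all were tested by limma. N-glycosylation genes had 0 of 18 called, with a median of 0.057. Of 33 ER to Golgi transport genes, 0 were higher and 1 was lower, with 23 positive and a median of 0.10; the lower gene was the vesicle SNARE Bet1, at -0.60 ± 0.12 (limma adjusted p = 0.0147). Bet1 remained past the threshold without D55, D92 and D121, at -0.74 (limma adjusted p = 0.0121). For Bet1 too, 1 of 2 probe sets was called when all were tested by limma. The shares of called genes in these lists lie near the backgrounds of 1.77% and 2.6%.

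**Figure D3:**
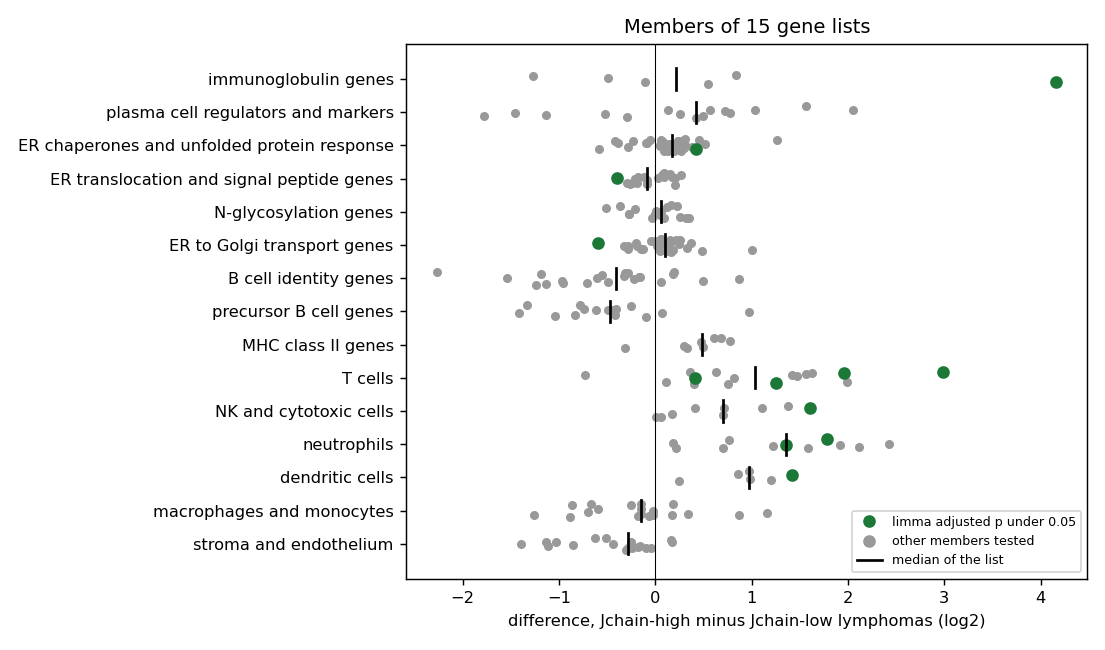
Differences between Jchain-high and Jchain-low lymphomas in log2 (horizontal axis) for the tested members of 15 gene lists (vertical axis). Each point is a gene, green where the limma adjusted p was under 0.05, and black bars are list medians; the medians are 0.42 for plasma cell genes, 0.17 for ER chaperones, 1.03 for T cells and 1.35 for neutrophils.

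The promoters of 2 chaperone genes are shown with the ER stress element, a motif to which unfolded protein response factors bind, because that response accompanies antibody secretion; neither gene passed the test. The motif searched was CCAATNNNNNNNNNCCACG on both strands, which 0.113% of 32851 promoter windows held. The part CCACG alone, which overlaps it, was held by 28.3% and ACGTGG by 6.91%. Capitals mark the matches, and Hsp90b1 has 2. Of 6 ER genes looked up, 4 had a promoter window. The other windows, those of Bet1 and Dnajb9, held 0 matches to the full motif. The windows are GRCm38.p6 RefSeq, chr2:34771840-34772089 on the plus strand for Hspa5 and chr10:86705445-86705694 on the minus strand for Hsp90b1.
Hspa5: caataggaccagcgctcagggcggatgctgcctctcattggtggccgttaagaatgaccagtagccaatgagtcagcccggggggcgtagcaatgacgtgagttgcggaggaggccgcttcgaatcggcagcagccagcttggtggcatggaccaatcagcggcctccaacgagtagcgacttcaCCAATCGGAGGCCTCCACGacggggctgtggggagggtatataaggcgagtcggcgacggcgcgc
Hsp90b1: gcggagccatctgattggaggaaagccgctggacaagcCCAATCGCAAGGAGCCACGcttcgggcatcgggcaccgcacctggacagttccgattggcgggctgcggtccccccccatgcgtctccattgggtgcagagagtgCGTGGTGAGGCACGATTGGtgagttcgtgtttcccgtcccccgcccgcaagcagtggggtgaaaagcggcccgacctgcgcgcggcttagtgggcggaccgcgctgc

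Genes of B cell identity and stage were not called. Of 22 B cell identity genes 0 passed the limma test, where 4.38% of all genes did. Their median difference was -0.41, and 5 differed in the positive direction. Pax5 differed by -0.61 ± 0.27 (limma adjusted p = 0.178) and Bach2 by -1.18 ± 0.44 (limma adjusted p = 0.114). Without the 3 arrays that stood apart, which were chosen for low B cell genes, these differences were -0.17 for Pax5 and -0.48 for Bach2. For Cd79a the difference was -1.54 ± 0.55 (limma adjusted p = 0.105), and without D55, D92 and D121 it was -0.50 with an adjusted p of 0.0415. Ebf1 differed by -2.26 ± 0.75 (limma adjusted p = 0.085), and by -0.83 without the 3. Bcl6, the germinal centre repressor, differed by 0.87 ± 0.28 (limma adjusted p = 0.074).

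Among 12 mature B cell surface genes 1 was lower, against 2.6% of all genes. This was Cd37, a tetraspanin of mature B cells, with medians of 10.46 in Jchain-high and 11.30 in Jchain-low lymphomas. Its difference was -1.30 ± 0.24 (limma adjusted p = 0.0133), and -0.85 without D55, D92 and D121 (limma adjusted p = 0.0271). Of 2 Cd37 probe sets, 1 was called when all were tested by limma. Precursor B cell genes had 0 of 16 called and a median of -0.47. Rag1, the recombinase, and Vpreb1, a surrogate light chain, differed by -1.33 ± 0.84 and -0.49 ± 0.84 (limma adjusted p = 0.354 and 0.762), and by -0.70 and -0.021 without the 3 arrays. MHC class II genes had 0 of 8 called and a median of 0.49.

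Myc, of which all these mice carry a transgene, had medians of 10.48 in Jchain-high and 11.04 in Jchain-low lymphomas and a difference of -0.46 ± 0.15 (limma adjusted p = 0.081). Cdkn2a, which encodes the tumour suppressors p16Ink4a and p19Arf, lay between 4.77 and 10.31 in Jchain-high lymphomas, with a median of 5.85. In Jchain-low lymphomas it lay between 4.46 and 11.46, with a median of 11.10. The difference of -3.18 ± 0.9997 had a limma adjusted p of 0.072, and the ranges overlapped across nearly their whole width. In the proliferation lists, the ribosome biogenesis gene Nop56 (0.31) and the DNA replication nuclease Fen1 (0.49) were higher. Slbp, which binds histone mRNA (-0.35), and the centromeric histone gene Cenpa (-0.67) were lower. These were 4 of 70 genes tested in 3 lists, a share near the 4.38% called over all genes, and without D55, D92 and D121 their adjusted p-values lay between 0.0535 and 0.191. When all probe sets were tested by limma, 0 of 2 were called for Nop56, 1 of 2 for Fen1 and 0 of 2 for Slbp.

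T cell genes were higher in part. Of 16 T cell genes tested 4 were higher and 0 lower, against 1.77% and 2.6% of all genes. Leaving out 1 array at a time moved the higher count of this list between 1 and 11. The list's median difference was 1.03, and 15 differed in the positive direction. Thy1, a T cell surface glycoprotein, lay between 7.06 and 9.60 in Jchain-high and between 5.30 and 7.74 in Jchain-low lymphomas, a difference of 1.96 ± 0.41 (limma adjusted p = 0.0191). Cd8b1, a chain of the CD8 coreceptor, lay between 5.60 and 11.82 in Jchain-high and between 4.50 and 7.30 in Jchain-low lymphomas, a difference of 2.99 ± 0.81 (limma adjusted p = 0.0448). Cd6, a T cell scavenger receptor, differed by 1.25 ± 0.29 (limma adjusted p = 0.0296), and Cd8a, the other CD8 chain, by 0.41 ± 0.11 (limma adjusted p = 0.0447). Of 2 Cd8a probe sets, 0 passed when all probe sets were tested by limma.

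The 3 arrays that stood apart had the highest Cd8b1, between 10.94 and 11.82. Without them the list had 0 members called by limma, where 28 of all 8452 genes were higher. Cd8b1 then differed by 1.47 (limma adjusted p = 0.114) and Thy1 by 1.65 (limma adjusted p = 0.0918). The CD3 genes, which define T cells, were not among the called members: Cd3g, Cd3d and Cd3e differed by 1.99, 1.47 and 0.63 (limma adjusted p = 0.068, 0.079 and 0.068). The T cell score, the mean of the list relative to the array set, ranged from -0.13 to 1.32 in Jchain-high and from -1.10 to 0.90 in Jchain-low lymphomas, where D89 was the highest. Ctsw, a cysteine protease of cytotoxic lymphocytes, was higher by 1.61 ± 0.33 (limma adjusted p = 0.0174). It was the 1 higher gene of 9 NK and cytotoxic genes, where 1.77% of all genes were higher. Without D55, D92 and D121 its adjusted p was 0.0867.

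Neutrophil genes were positive in all 11 of those tested, with a median of 1.35. Of the 11, 2 were higher by limma, against 1.77% of all genes, and between 0 and 8 when 1 array at a time was left out. Ltf, the granule protein lactoferrin, lay between 5.40 and 8.32 in Jchain-high and between 4.55 and 6.70 in Jchain-low lymphomas, a difference of 1.78 ± 0.45 (limma adjusted p = 0.0385). Mpo, the granule peroxidase, differed by 1.35 ± 0.36 (limma adjusted p = 0.0439). S100a9 and S100a8, abundant calcium-binding proteins of neutrophils, differed by 2.43 ± 0.70 and 2.11 ± 0.61, both with a limma adjusted p of 0.059. Once D55, D92 and D121 were left out, 0 of the 11 passed limma's threshold, where 28 of all 8452 genes were higher. Ltf then differed by 1.61 (limma adjusted p = 0.131) and Mpo by 1.36 (limma adjusted p = 0.124). Of the 13 neutrophil genes on the array, Elane, Ctsg, Mmp8 and Cxcr2 were above the array median in none of the 18 lymphomas. The neutrophil score ranged from -0.99 to 1.31 in Jchain-high and from -1.96 to 0.20 in Jchain-low lymphomas.

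With the T cell and neutrophil scores as covariates, limma called 0 genes in either direction. Cd8b1 differed by -0.024 in that fit, but it is itself a member of the T cell score, so this value is not a separate result. The part of these scores in the other results was not tested further. Ccr9, a homing receptor counted among dendritic cell genes, was higher by 1.42 ± 0.34 (limma adjusted p = 0.0335). Without D55, D92 and D121 it differed by 0.98 (limma adjusted p = 0.0867). It was the 1 called of 6, where 1.77% of all genes were higher. Of 3 Ccr9 probe sets, 1 was called when all were tested by limma, and the lowest differed by 0.17. All 6 dendritic cell genes were positive, with a median of 0.98. Their score was highest in D92, D55 and D121, at 2.55, 1.399 and 0.95, and reached 0.40 at most in the other Jchain-high lymphomas. Macrophage genes had 0 of 19 called, with a median of -0.15, and stroma and endothelium 0 of 19, with a median of -0.28.

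**Figure D4:**
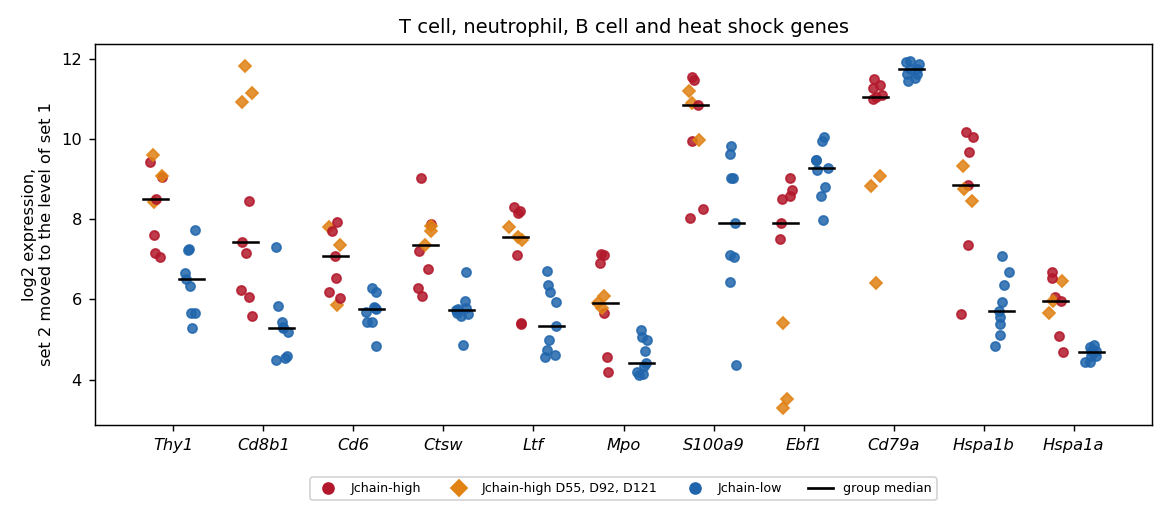
Levels of T cell, cytotoxic, neutrophil, B cell and heat shock genes in log2, set 2 moved to the level of set 1, for 9 Jchain-high (left of each pair) and 9 Jchain-low lymphomas (right). Each point is 1 lymphoma, orange diamonds are D55, D92 and D121, and black lines are group medians; Cd8b1 reaches 11.82 in those diamonds and 7.30 at most in Jchain-low lymphomas.

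Among called genes with at least a 2-fold difference, outside the lists, several were chosen for naming after their values were seen. Hspa1b, an inducible heat shock protein of the Hsp70 family, had medians of 8.86 in Jchain-high and 5.70 in Jchain-low lymphomas. It lay between 5.64 and 10.19 in the Jchain-high group and between 4.85 and 7.09 in the Jchain-low group. The difference was 2.85 ± 0.51 (limma adjusted p = 0.0104), and 2.80 without D55, D92 and D121 (limma adjusted p = 0.0498). Its near-identical neighbour Hspa1a differed by 1.26 ± 0.22 (limma adjusted p = 0.0104), and signal from the 2 genes may be shared between their probe sets. Hspa1a was above the array median in 3 of the 36 lymphomas. D81 was the lowest Jchain-high lymphoma for Hspa1b, at 5.64, within the Jchain-low range.

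Promoter windows of both heat shock genes are shown because the 2 genes were higher together. They differ at 3 of 250 bases. Searched on both strands for the heat shock unit pair GAANNTTC, chosen after the longer pattern of 3 units had given no match, each has 1 match, in capitals, and 6.69% of all windows hold one. The windows are GRCm38.p6 RefSeq on the minus strand, chr17:34959239-34959488 for Hspa1b and chr17:34972157-34972406 for Hspa1a.
Hspa1b: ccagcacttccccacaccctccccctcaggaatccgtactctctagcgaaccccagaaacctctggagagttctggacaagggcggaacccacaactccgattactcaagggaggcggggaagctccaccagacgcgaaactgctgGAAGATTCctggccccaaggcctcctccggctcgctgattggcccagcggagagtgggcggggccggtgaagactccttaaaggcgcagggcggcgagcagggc
Hspa1a: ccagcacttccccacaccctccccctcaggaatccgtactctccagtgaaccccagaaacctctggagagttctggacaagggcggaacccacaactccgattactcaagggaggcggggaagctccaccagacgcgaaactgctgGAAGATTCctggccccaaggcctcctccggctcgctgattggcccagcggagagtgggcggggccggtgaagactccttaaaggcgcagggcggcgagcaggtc

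Further higher genes of this kind included Fyb, a T cell and myeloid adaptor, at 2.40 ± 0.51 (limma adjusted p = 0.0219), and 1.46 without D55, D92 and D121 (adjusted p = 0.0415). Cbr3, a carbonyl reductase, differed by 2.16 ± 0.48, Fxyd5, a regulator of the sodium pump, by 2.02 ± 0.39, and the integrin chain Itgb7 by 1.86 ± 0.50, or 1.14 without the 3 arrays. Golm1, a Golgi membrane protein, differed by 1.53 ± 0.32 and Tubb2a, a tubulin, by 1.57 ± 0.29. Lower genes included Dusp6, a phosphatase of ERK, at -2.23 ± 0.49 (limma adjusted p = 0.023), which was -1.73 without the 3 arrays (adjusted p = 0.105). Mgst1, a glutathione transferase, differed by -1.96 ± 0.47, or -1.04 without the 3, Cirbp, a cold-inducible RNA-binding protein, by -1.35 ± 0.37, Tsc22d3, a glucocorticoid-induced gene, by -1.28 ± 0.34, and Btg1, an antiproliferative gene, by -1.01 ± 0.27. All of these had limma adjusted p-values under 0.05. Once D55, D92 and D121 were left out, Mgst1 and Tsc22d3 kept this, while Cbr3, Fxyd5, Itgb7, Golm1, Tubb2a, Cirbp and Btg1 had adjusted p-values from 0.0544 to 0.192.

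The 2 groups did not overlap for 9 of the higher genes (0.106% of all tested) and 20 of the lower genes (0.237%). Named here are all 9 and the 12 lower ones with the largest differences. Among the lower ones the largest difference was that of Sypl, a vesicle membrane protein, at 7.81 to 10.18 in Jchain-high and 10.49 to 11.17 in Jchain-low lymphomas. Its difference was -1.72 ± 0.31 (limma adjusted p = 0.0104), and -1.13 without D55, D92 and D121 (adjusted p = 0.0121), and all 4 of its probe sets were lower. Trim32, a ubiquitin ligase, differed by -1.28 ± 0.24 and Babam2, a subunit of a deubiquitinase complex, by -0.95 ± 0.17. Pnpla8, a phospholipase, Rdh14, a retinol dehydrogenase, Pex7, a peroxisomal import receptor, and Echs1, a fatty acid oxidation enzyme, differed by -0.81 to -0.57. Cfap20, Cenpq, Fbxo8 and Zfp617 differed by -0.69 to -0.63, and 1810044D09Rik by -0.90.

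Of the higher genes without overlap, Lrrfip1, a nucleic acid-binding protein, was higher by 0.70 ± 0.12, with 9.78 to 10.57 in Jchain-high and 9.05 to 9.69 in Jchain-low lymphomas, and all 3 of its probe sets were called. Tmem109, Nbeal2 and Pou6f1 were higher by 0.59, 0.58 and 0.54. Pde4a, a phosphodiesterase of cyclic AMP, Adpgk, an ADP-dependent glucokinase, Trmt2a and Mto1, which modify tRNAs, and Zdhhc14, a palmitoyltransferase, were higher by 0.31 to 0.45. Probe sets of some of these genes disagreed when all probe sets were tested: 2 of 5 were called for Tmem109 (lowest -0.16), 1 of 2 for Pou6f1 (lowest -0.016), 3 of 4 for Trmt2a (lowest -0.31), 1 of 2 for Mto1 and 0 of 6 for Zdhhc14, and among the lower genes 1 of 2 for Rdh14. Pou6f1 was above the array median in 1 of the 36 lymphomas and Pde4a in 2, so their differences are between low signals. Once D55, D92 and D121 were left out, Nbeal2, Adpgk, Mto1 and Zdhhc14 among these and Pnpla8 among the lower genes missed the threshold, with limma adjusted p-values from 0.0535 to 0.117.

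The 18 lymphomas between the groups are arrays the contrast did not use, although their Jchain covers a narrower range, from -2.05 to 1.54. There, 0 genes had a slope on Jchain past the limma threshold in either direction, while 225 (2.66%) positive and 369 (4.37%) negative slopes had an unadjusted p under 0.05. Of the 150 higher genes, 100 had a positive slope, against 45.6% of all genes, and 20 had an unadjusted p under 0.05. Of the 220 lower genes, 59 had a positive slope, against the same 45.6% of all genes, and 25 had a negative slope with an unadjusted p under 0.05. The slope of Igha was 0.78 ± 0.28 log2 per log2 unit of Jchain (p = 0.0117, limma adjusted p = 0.693). Ctsw had a slope of 0.42 ± 0.12 (p = 0.00281, limma adjusted p = 0.693), and Hspa1b one of 0.12 ± 0.32 (p = 0.715). For Sypl and Dusp6 the slope had the opposite sign to the difference between the groups, at 0.11 ± 0.09 and 0.49 ± 0.30 (p = 0.209 and 0.122).

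**Figure D5:**
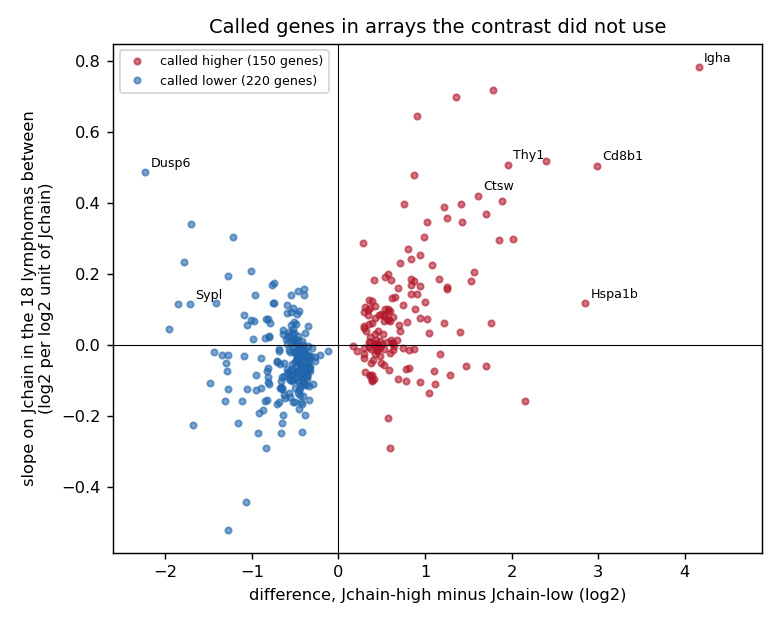
Slope on Jchain in the 18 lymphomas between the groups (vertical axis, log2 per log2 unit of Jchain) against the difference between Jchain-high and Jchain-low lymphomas in log2 (horizontal axis), for 150 higher (red) and 220 lower (blue) genes. Igha has the highest slope, 0.78, and Dusp6 a slope of 0.49 against a difference of -2.23.

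Over the 36 ranked lymphomas, the genes whose level followed Jchain most closely were Igha (Pearson r 0.74), Ctsw (0.74), Hcst (0.70), Acaa1a (0.69) and Golm1 (0.68), followed by Tesc, Prkcq, Lrrfip1, Plcb3 and Fxyd5 (0.65 to 0.68). The most negative were Cenpq (-0.73), Cfap20 (-0.73), Gnai3 (-0.73), Pip5k1a (-0.73) and Mob2 (-0.71), so the strongest relations ran in both directions. These are descriptions over arrays that include both groups, and all 10 positive genes were called higher. Of the 5 tested genes nearest to Jchain on each side of its chromosome, 0 of 10 were called by limma, and Dck, the nearest to the threshold, differed by -0.54 (adjusted p = 0.116).
In the 7 lymphomas left aside, Igha had a median of 13.04 and a lowest value of 7.17, and in the spleen 12.85, on the set 1 scale.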

How the data were processed

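Expression of 43 lymphomas and 1 spleen was measured on 1 array each. The deposited values are log2 expression per probe set. RMA and the affy package are named in the submitters' processing notes; versions are not given in the sources used here. Column levels separated title numbers up to that of D117 from those above. This array set entered every fit of both sets, apart from the alternatives that left it out. Of 22690 probe sets, 64 controls, 691 with several gene symbols and 1542 with none listed were left out; 20364 identifiers matched the RefSeq annotation and 0 were renamed. The probe set with the highest mean stood for each of 12394 genes, and genes above the set median in 1 or more of the 36 lymphomas were tested, 8452 in number without Jchain.

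Groups were compared with limma 3.58.1 in R 4.3.3 (eBayes with intensity trend, two-sided, Benjamini-Hochberg at 0.05) over 18 lymphomas. Control differences and array medians, relative to the mean of the array set, were compared by exact permutation over 48620 assignments. The number of arrays sets the precision. The pipeline was tested on simulated data. Named genes were the 12 largest differences a direction among called genes without overlap, up to 4 members of each list, fixed genes of the B and plasma cell programme, and others said to be chosen after their values were seen. The members and lists were chosen with earlier results of these data known. Promoter windows were 250 bases before the start. Alternatives concerned covariates, group size, filter, probe sets, scaling, eBayes settings and arrays left out. Protein sequences were not used here.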

Additional observations from a re-analysis of the deposited data

Results flagged for a closer look

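In 86 named genes, 172 groups of 9 lymphomas were checked for a lymphoma far from the other 8, and 17 had one; chance gives about 1 in 20 such groups. In Jchain-high lymphomas, D92 was high for Pde4a (6.623; others 5.718 to 6.069) and Tsc22d3 (10.87; others 7.899 to 9.346) and low for Cenpa (9.304; others 10.02 to 10.35). D83 was low for Ighm (8.563; others 11.59 to 13.28) and Fen1 (10.53; others 11 to 11.32) and high for Cdkn2a (10.31; others 4.768 to 7.245). D81 was high for Zdhhc14 (8.597; others 8.082 to 8.32) and D85 low for Rdh14 (7.493; others 8.087 to 8.566).

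In Jchain-low lymphomas, D89 was high for Cd8a (7.075), Cd8b1 (7.297), Cd28 (5.262), Ccl5 (11.47) and Prdm1 (5.749), against at most 6.64, 5.825, 4.153, 7.91 and 4.845 in the other 8. D35 was low for Ighm (8.457; others 12.25 to 13.42) and high for the stromal gene Sparc (9.972; others 5.753 to 7.891). D62 was low for Igk (5.751; others 7.266 to 8.268) and high for Vpreb1 (13.19; others 5.681 to 8.839).

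In arrays outside the comparison, the deposited level of Jchain was 13.23 in the spleen, an array of set 2, or 4.31 relative to the mean of that set. The highest of set 1 among the lymphomas left aside was D88, at 13.53, or 5.53 relative to the mean of set 1, against 11.08 at most in the ranked lymphomas of that set.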

How the results depend on the processing

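Against 150 higher and 220 lower genes as reported, the counts were 12 and 6 without the array set in the fit, 76 and 119 without the filter, 444 and 542 with array weights, 333 and 381 with ribosome biogenesis and G2/M scores, and 58 and 98 with the title number. The slope over 36 lymphomas gave 244 higher and 319 lower genes. Counts were 0 and 0 by limma in set 1 alone, with the T cell, macrophage and stroma scores, with the T cell and neutrophil scores, with the Gapdh measure, and with the Gapdh and beta-actin measures. Without D55, D92 and D121 they were 28 and 46. The fits with the neutrophil score or with beta-actin, and this omission, were chosen after seeing the data. Quantile scaling gave 194 and 162, so that 54.5% of calls were higher, against 40.5% as reported. Leaving out 1 array gave 40 to 276 higher genes and 63 to 430 lower genes. Higher genes numbered 40 without D85, 44 without D121, 52 without D43, 54 without D151, 58 without D93, 62 without D135, 64 without D72, 70 without D71, 71 without D35, 78 without D92 or D143, 85 without D55, 94 without D62, 237 without D81 and 276 without D89. Lower genes numbered 63 without D85, 76 without D121, 83 without D43, 430 without D89, and from 98 to 134 without D151, D93, D135, D72, D71, D35, D92, D143, D55 or D62. The slope in the lymphomas between the groups had 944 positive and 1767 negative calls once the 7 lymphomas left aside were added, and 0 otherwise. The mean of the germinal centre list relative to the array set ran from 2.23 (D46) to 3.53 (D78) in those 7. It reached at most 1.26 (D83) in the ranked lymphomas. In that fit, genes that follow Jchain and genes that mark the 7 cannot be told apart. Cd8b1 differed by -0.024 with the T cell and neutrophil scores, of which the T cell score includes its own level. Igha kept its call in 36 of 41 settings and its sign in all 41. No paired analysis was possible because every array has a title number of its own.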
